A study of Schizosaccharomyces pombe with 12 samples.

Results

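Antisense long noncoding RNAs are transcripts made from the strand opposite a gene. In fission yeast (*Schizosaccharomyces pombe*) they are known to lie across many protein-coding genes, including genes used only in meiosis, and most of them are kept at a low level in growing cells by the nuclear exosome, RNA interference, the cytoplasmic 5′ exonuclease and chromatin factors such as the Clr6 histone deacetylase complexes. Antisense transcription can lower the output of the sense gene at some loci and has no known effect at others. The RNAs described here were selected on their measured levels. They are the rows of the deposited tables whose identifier starts with SPNCRNA, whose product is an antisense RNA, and whose average reached 100 normalized reads or more at 1 of the times sampled or at several. The rule kept 349 of 693 antisense RNAs, out of 6988 features in all. A normalized read is a read divided by the size factor of its library, which evens out sequencing depth.

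The study grew the wild-type strain AGP72, an h- strain whose leu1, ura4, his3 and ade6 genes are mutant. Cells in logarithmic growth in YES, a yeast extract medium, gave the 0 h samples. Cells moved from YES to ePMGT(+PO4), a defined medium with glutamate, thiamine and ample phosphate, were sampled 2, 4 and 8 h later. Each time had 3 biological replicates, 12 libraries of poly(A)+ RNA in all. The comparison asks how the move to the defined medium, without phosphate starvation, changed transcript levels. Medium and time after transfer cannot be told apart, because no culture was kept in YES. Since RNA was taken from whole cultures, a lower level in every cell and fewer cells with the RNA cannot be told apart either.

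The deposited averages were written to 15 digits, and from them the whole reads of the 3 libraries behind each average were recovered for 6826 features, including all 349 antisense RNAs. The recovered reads came to between 9664166 and 14673180 per library, of which 97286 to 148819 were reads of the antisense RNAs. Libraries of the same time had correlations of 0.971 to 0.988 over the antisense RNAs on the log2 scale, and no library stood apart. The median standard deviation between libraries of a time was 0.139 on the log2 scale for the antisense RNAs and 0.0681 for coding genes at 100 or more. The libraries of a time are called a, b and c in the order of their size factors, because which replicate number each had could not be told.

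How the counting treated strand is not stated in the sources, although a stranded kit was used for the libraries. Of the coding genes, 379 lie wholly under features of the other strand in the ASM294v3 annotation, and these had a median average of 961 normalized reads at 0 h, against 1492 for 2424 coding genes under no such feature. If strand were ignored, HTSeq's default overlap mode would leave reads from such genes unassigned, yet 185 of the 379 held 1000 or more and 26 held under 10. How reads over features that overlap on the same strand were treated was not tested.

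The antisense RNAs took a small and steady share of the reads. Over 0, 2, 4 and 8 h their averages summed to 0.663%, 0.708%, 0.665% and 0.662% of all normalized reads. The median antisense RNA averaged 204, 216, 211 and 205 normalized reads. Of the 349 antisense RNAs, 269 were at 100 or more at all 4 times, 283 stayed under 500 throughout and 19 reached 1000 at some time. Products were given as antisense RNA (predicted) for 296, with a possible alternative UTR for 52, and as Meu16 for 1. The members closest to the threshold were SPNCRNA.1377, SPNCRNA.1603 and SPNCRNA.967, with highest averages of 101, 102 and 102. Just outside it lay SPNCRNA.801, SPNCRNA.711 and SPNCRNA.1367, with 99.3, 99.1 and 99.1.

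The most abundant antisense RNA by reads was SPNCRNA.1626, opposite *mbx2*, which encodes a MADS-box transcription factor. It held 6672, 7785 and 6763 normalized reads in the libraries of 0 h, 7924, 8078 and 9429 at 2 h, 11554, 10874 and 10352 at 4 h, then 10150.0, 10195 and 11162 at 8 h. The libraries of every later time lay above those of 0 h, and SPNCRNA.1626 was upregulated by 1.49-fold at 8 h (log2 0.57 ± 0.07 SE, limma adjusted p = 3.07e-07). The sense genes of SPNCRNA.1626, SPNCRNA.979 and SPNCRNA.1318 are not part of their names and were read from the annotation. Next came SPNCRNA.1644, opposite *spo4*, a kinase gene of meiosis, which averaged 1925 at 8 h and 2240 at 0 h and fell by 0.22 ± 0.05 on the log2 scale (limma adjusted p = 0.0021). SPNCRNA.1118, opposite the hexose transporter gene *ght6*, SPNCRNA.979, opposite the glycerol-3-phosphate dehydrogenase gene *gpd2*, and SPNCRNA.1505, opposite the phosphoketolase gene *SPBC24C6.09c*, averaged 1734, 1542 and 1517 at 0 h. SPNCRNA.1118 and SPNCRNA.979 fell at 8 h by 0.28 and 0.50 on the log2 scale, and SPNCRNA.1505 had a log2 change of 0.05 that did not pass the test.

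At 8 h 16 antisense RNAs were upregulated and 8 were downregulated by 2-fold or more against 0 h, where a call also needed an adjusted p of 0.05 or less in limma over 5949 features and an average of 100 or more at the higher time. At 2 h the counts were 11 up and 4 down, and at 4 h 10 up and 2 down. Over all 5242 tested features at 100 or more, the shares called up at these times were 1.6%, 1.56% and 2.4%, and the shares called down were 0.134%, 0.229% and 0.801%. Among the antisense RNAs, 3.15%, 2.87% and 4.58% were called up and 1.15%, 0.573% and 2.29% were called down. An antisense RNA could enter the set through a high average at a single time, so these counts describe the set and support nothing about antisense RNAs at large. Indeed 10 of the 16 called up at 8 h were under 100 at 0 h, and 4 of the 8 called down were under 100 at 8 h.

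**Figure D1:**
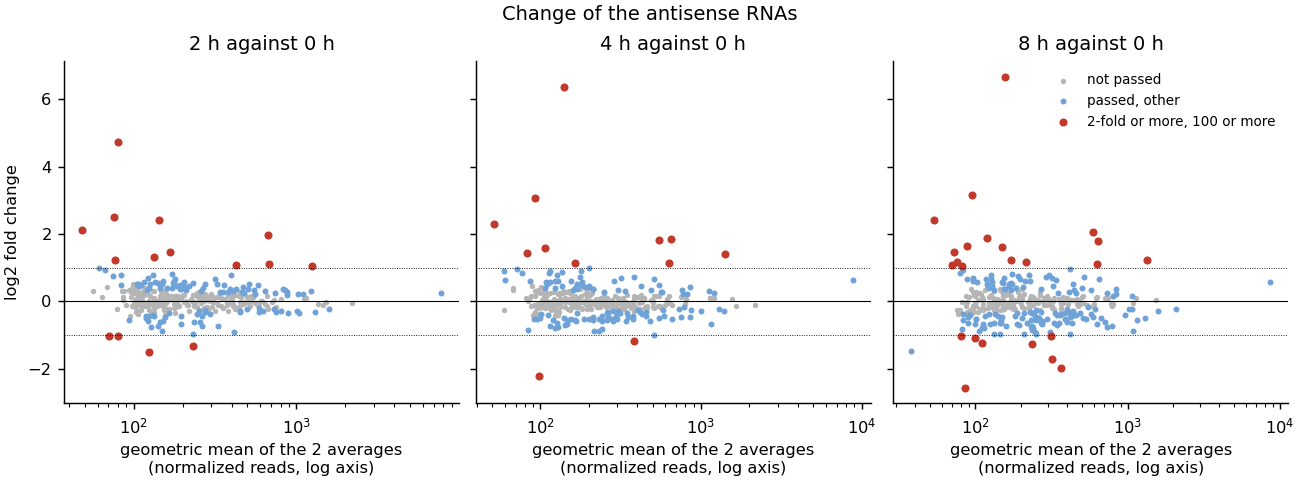
Log2 fold change of each of the 349 antisense RNAs (vertical axis) against the geometric mean of its averages at the compared times in normalized reads (horizontal log axis), at 2, 4 and 8 h against 0 h. Red points are the 15, 12 and 24 RNAs past 2-fold with an adjusted p of 0.05 or less and 100 or more reads at the higher time, blue points passed the test without meeting those limits, grey points did not pass, and dotted lines mark 2-fold.

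Smaller changes were more common and ran both ways. At any fold, 70 antisense RNAs rose and 106 fell at 8 h, after 79 and 46 at 2 h and 61 and 69 at 4 h. Over all features at 100 or more, the shares that rose at 2, 4 and 8 h were 18.5%, 21.6% and 27.8%, and the shares that fell were 15.4%, 19.1% and 24.6%. The antisense RNAs had 20.1% that rose and 30.4% that fell at 8 h. Their median log2 changes over these times were 0.050, -0.034 and -0.069, against 0.0011, -0.0022 and 0.025 over all features at 100 or more. Intergenic noncoding RNAs at 100 or more had 35 that rose and 86 that fell of 193 at 8 h, with a median of -0.23. Of the antisense RNAs, 42 rose at all of 2, 4 and 8 h, 27 fell at all of them, 8 rose at 2 h and fell at 8 h, and 130 passed the test at no time. These patterns were not counted over all features, so whether they are particular to antisense RNAs was not tested.

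Few changes of 2-fold came between consecutive times after that. Of the 28 antisense RNAs called at 1 or more times against 0 h, 8 were called up at 2, 4 and 8 h alike, a count not made over all features. Between 2 and 4 h, 2 antisense RNAs were called up and 1 was called down at 2-fold, against 0.114% of all features called up and 0.114% called down. Those called up were SPNCRNA.577 and SPNCRNA.616, opposite the galactosyltransferase gene *otg1*, and the RNA called down was SPNCRNA.1328, opposite the autophagy gene *atg38*. SPNCRNA.616 lost its call without library a or b of 4 h, which left 1, and SPNCRNA.1328 lost its call without library a or c of 2 h or library c of 4 h, which left 0. Between 4 and 8 h limma called 0 up and 0 down at 2-fold, also at an unadjusted p under 0.05 and with voom weights, against 0.248% of all features called up and 0.0572% called down. Without library b or c of 4 h, or without library a of 8 h, 1 was called down.

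SPNCRNA.577 had the largest change of all. It lies opposite *SPBC1652.02*, which encodes an amino acid transporter of the plasma membrane family APC. It was nearly silent in YES, with 15.9, 16.6 and 13.9 normalized reads in the 3 libraries of 0 h, and held 413, 447 and 373 at 2 h, 1316, 1174 and 1373 at 4 h, then 1599, 1576 and 1550 at 8 h. The groups did not overlap at any step, and the RNA was upregulated by 26.6-fold at 2 h, 83.3-fold at 4 h and 102-fold at 8 h (log2 6.67 ± 0.09 SE, limma adjusted p = 1.3e-22). Its sense gene averaged 2499, 2237, 1957 and 2017 at 0, 2, 4 and 8 h, and fell by 0.31 ± 0.06 on the log2 scale at 8 h (adjusted p = 0.000346).

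SPNCRNA.933 lies opposite the ribosomal protein gene *rpl1002*. Its libraries held 34.9, 22.5 and 38.4 normalized reads at 0 h, 178, 194 and 162 at 2 h, 253, 228 and 314 at 4 h, then 286, 264 and 287 at 8 h. It was upregulated by 8.97-fold at 8 h (log2 3.16 ± 0.17 SE, limma adjusted p = 1.35e-12), while *rpl1002* averaged 9824 at 8 h and 12290.0 at 0 h and fell by 0.32 ± 0.06 on the log2 scale. SPNCRNA.1695, opposite *fub2*, a gene for a proteasome regulator, held 136, 135 and 98.2 at 8 h, against 24.6, 19.5 and 25.6 at 0 h, and was upregulated by 5.28-fold. Its sense gene was itself almost silent, at 23.9 at 8 h and 1.81 at 0 h, and was not tested.

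SPNCRNA.1471 lies opposite *pof9*, which encodes an F-box protein, a substrate receptor of ubiquitin ligases. It climbed at every step, with libraries of 329, 275 and 271 at 0 h, 651, 571 and 630 at 2 h, 1080, 928 and 1068 at 4 h, then 1259, 1224 and 1139 at 8 h, or 4.15-fold up at 8 h (log2 2.05 ± 0.08 SE, limma adjusted p = 7.36e-15). SPNCRNA.622, opposite *sty1*, the MAP kinase gene of the stress response, held 912, 903 and 923 at 8 h, against 449, 415 and 420 at 0 h, or 2.13-fold up. *sty1* itself averaged 4955 and 4699 and did not pass the test. SPNCRNA.1238, opposite the ascospore wall gene *meu10*, was 3.11-fold up at 8 h, and SPNCRNA.1318, opposite the maltase gene *mal1*, was 2.35-fold up. SPNCRNA.769, opposite *SPAPB1A10.13*, SPNCRNA.1473, opposite *spo14*, and SPNCRNA.1305, opposite the pseudogene *SPBPB21E7.08*, were up by 2.75-fold, 3.07-fold and 2.25-fold at 8 h.

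Several RNAs were highest at 2 h. SPNCRNA.980, opposite *ayr1*, a gene of lipid synthesis, held 970, 1003 and 986 at 2 h, against 493, 470 and 424 at 0 h, and was up by 2.14-fold (limma adjusted p = 1.44e-09). At 8 h it held 375, 324 and 416, below every library of 0 h, and had fallen by 0.32 on the log2 scale (adjusted p = 0.00381). SPNCRNA.1617, opposite the dubious gene *SPBC887.16*, averaged 99.9, 278, 151 and 142 at 0, 2, 4 and 8 h. SPNCRNA.990, opposite *cbh1*, a CENP-B homolog gene, averaged 84.1, 211, 152 and 125.

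Of the RNAs that were downregulated, SPNCRNA.1312 went furthest, and it was the only 1 called down at all 3 later times. It lies opposite *abc3*, which encodes a vacuolar heme exporter. Its libraries held 209, 199 and 216 normalized reads at 0 h, 82.2, 66.8 and 71.4 at 2 h, 39.7, 57.3 and 39.5 at 4 h, then 30.9, 39.2 and 35.2 at 8 h, a 5.95-fold decrease at 8 h (log2 -2.57 ± 0.18 SE, limma adjusted p = 2.09e-10). Over the same times *abc3* was upregulated, with 2737, 3000 and 2622 at 8 h, against 1105, 1049 and 1139 at 0 h, or 2.54-fold.

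SPNCRNA.888, opposite the clathrin adaptor gene *end4* and marked as a possible alternative UTR, fell late. It held 691, 759 and 712 at 0 h, 665, 573 and 626 at 2 h, 397, 340 and 349 at 4 h, then 201, 178 and 169 at 8 h, a 3.95-fold decrease at 8 h (limma adjusted p = 6.54e-14), with no pass at 2 h (adjusted p = 0.0679). SPNCRNA.652, opposite *SPAC24H6.11c*, a gene of the sulfate transporter family, held 183, 166 and 176 at 8 h, against 541, 599 and 571 at 0 h, a 3.25-fold decrease. SPNCRNA.687, opposite *cph1*, a gene of a Clr6 histone deacetylase complex, held 113, 175 and 151 at 2 h, 288, 227 and 236 at 4 h, then 144, 138 and 171 at 8 h, all below its 333, 387 and 366 at 0 h. It was 2.51-fold down at 2 h, 1.45-fold down at 4 h and 2.40-fold down at 8 h, while *cph1* averaged 1552 at 8 h and 1526 at 0 h and did not pass.

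SPNCRNA.560, opposite the autophagy gene *atg1801*, SPNCRNA.1294, opposite *SPCC1827.07c*, SPNCRNA.1211, opposite *SPCC777.06c*, and SPNCRNA.763, opposite *sgt1*, were down by 2.03-fold, 2.34-fold, 2.12-fold and 2.06-fold at 8 h. SPNCRNA.616 was 2.04-fold down at 2 h, at 51.1, 47.5 and 48.6 against 113, 95.7 and 91.8 at 0 h, and was back at an average of 97.6 at 8 h. Meu16, SPNCRNA.928, is the member with a name of its own, from genes upregulated in meiosis. It averaged 292, 189, 159 and 147 at 0, 2, 4 and 8 h and fell by 0.99 ± 0.12 on the log2 scale at 8 h (limma adjusted p = 5.74e-07).

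**Figure D2:**
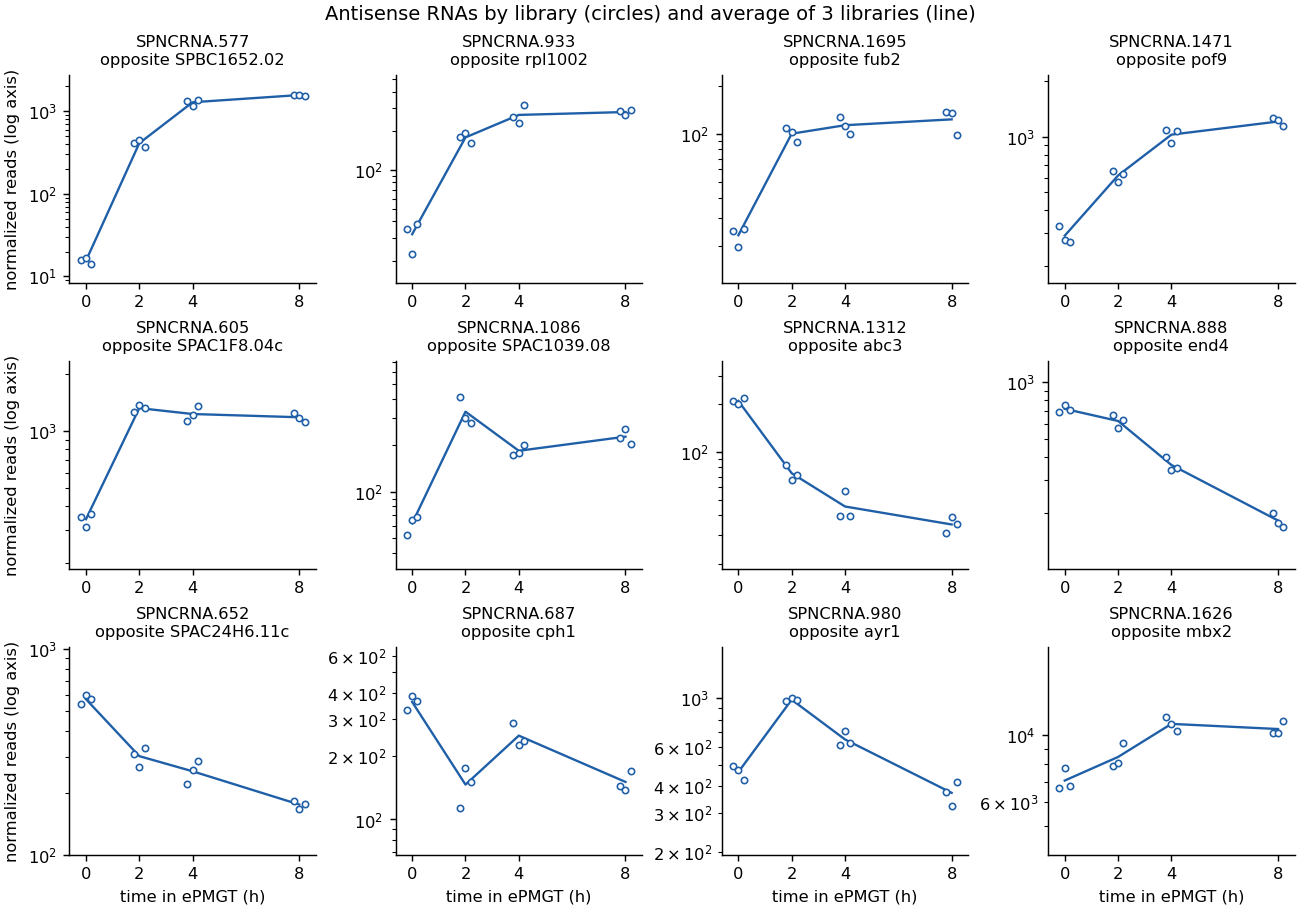
Normalized reads of 12 antisense RNAs (vertical log axes, each with its own range) against hours in ePMGT, with 1 circle per library and a line through the averages. SPNCRNA.577 climbed by 102-fold to 8 h, SPNCRNA.1312 and SPNCRNA.888 fell by 5.95-fold and 3.95-fold, and SPNCRNA.980 peaked at 2 h.

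A sense gene could be matched by name for 311 of the 349 antisense RNAs, and 309 pairs had an annotated length for both. In the annotation, 87 of the 349 lie over 2 or more coding genes, and each matched RNA was set beside the gene in its name only. Per kb of annotated exon, the median antisense RNA stood at 29.4%, 25.8%, 26.6% and 23.8% of its sense gene over the 4 times in order. The 344 antisense RNAs below the threshold were left out, while no such floor was set for the sense genes. Levels relative to the sense gene, and counts of pairs by level, therefore describe the selected set and not antisense RNAs at large. At 8 h the antisense RNA was above its sense gene per kb in 67 pairs, and at 0 h in 74. In 61 pairs it was above at all 4 times, and 11 of these had a sense gene named *mug*, *meu* or *spo* or described as meiotic, out of 24 such pairs in all, a count made after the values were seen. SPNCRNA.1644 stood at 720 normalized reads per kb at 8 h and 837 at 0 h, while *spo4* stood at 0.952 and 2.27. SPNCRNA.904, opposite the meiotic recombinase gene *dmc1*, stood at 636 per kb at 8 h and 656 at 0 h, with *dmc1* at 31.6 and 31.7. SPNCRNA.1435 and SPNCRNA.1494 also exceeded 10 times the level of their sense genes *mug93* and *meu17* at all 4 times, as did 11 antisense RNAs in all.

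**Figure D3:**
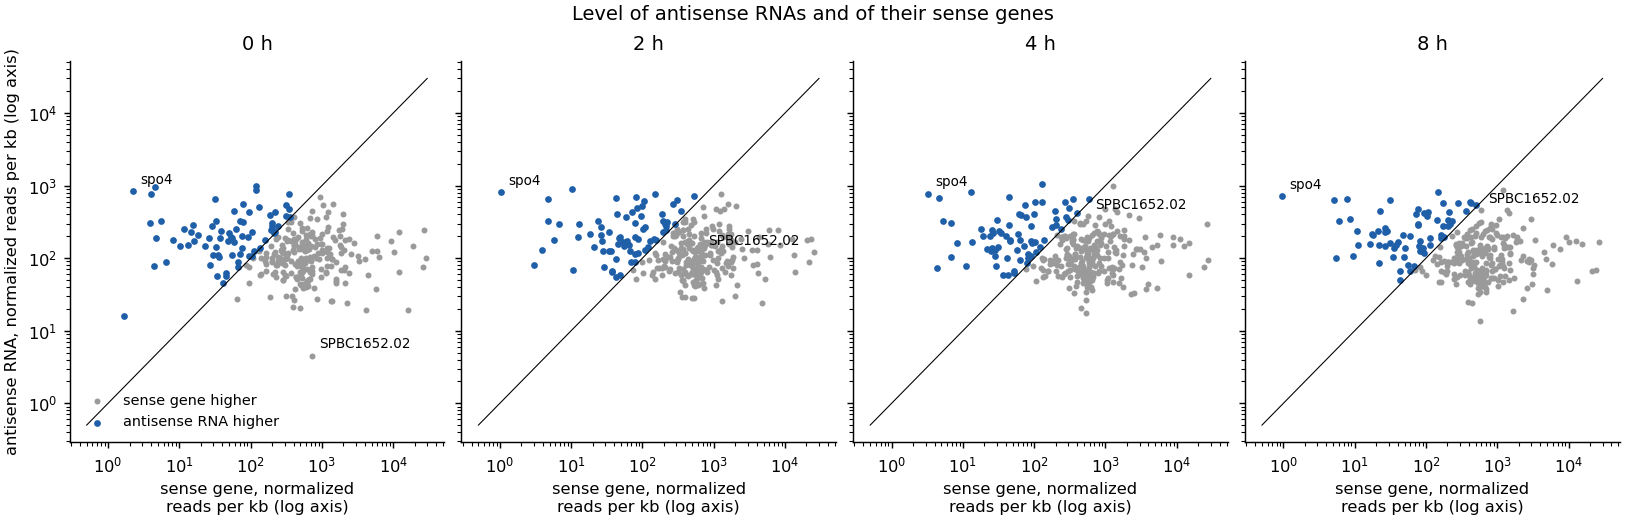
Normalized reads per kb of each antisense RNA (vertical log axis) against those of its sense gene (horizontal log axis) at 0, 2, 4 and 8 h for 309 pairs, with a line of equal level. Blue points (74, 71, 71 and 67 in the panels in order) have the antisense RNA above the sense gene, and SPNCRNA.577 (labelled SPBC1652.02) stood at 462 per kb at 8 h, against 4.54 at 0 h.

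In 11 pairs the order of the levels per kb turned from antisense above at 0 h to sense above at 8 h, and in 4 pairs it turned the other way. The sharpest turn was at *alr2*, which encodes alanine racemase, a pair named here after its values were seen. Its antisense RNA SPNCRNA.1309 held 145, 170 and 142 normalized reads at 8 h, against 240, 235 and 267 at 0 h. *alr2* held 7429, 7552 and 6952 at 8 h, against 125, 125 and 185 at 0 h. *alr2* was upregulated by 51.3-fold at 8 h, while SPNCRNA.1309 fell by 0.70 ± 0.12 on the log2 scale (limma adjusted p = 4.04e-05). Per kb, the antisense RNA stood at 121 and *alr2* at 4580 at 8 h, against 196 and 90.9 at 0 h. The pair SPNCRNA.1471 and *pof9* turned the other way, to 580 per kb for the antisense RNA and 430 for *pof9* at 8 h, against 140 and 286 at 0 h.

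Over the 304 pairs with both partners tested, the change of the antisense RNA and that of its sense gene were weakly correlated. Over 2, 4 and 8 h Pearson's r was -0.07, -0.05 and -0.07, and Spearman's rho was -0.13, 0.01 and -0.05, as a description over pairs that share the same 12 libraries. At 8 h both partners passed in 90 pairs. In 19 both rose, in 17 both fell, in 17 the antisense RNA rose and the sense gene fell, and in 37 the antisense RNA fell and the sense gene rose. In all, 36 pairs went the same way and 54 opposite ways at 8 h. The counts were 18 and 25 at 2 h, then 22 and 32 at 4 h. The opposite coding gene with the largest overlap was used instead in 339 pairs, a choice made after the values were seen. At 8 h these had an r of -0.10, with 40 pairs going the same way and 58 opposite ways. Rises and falls were not equally common. At 8 h 20.1% of the antisense RNAs rose and 30.4% fell. Of coding genes that met the same threshold, 28.9% rose and 23.0% fell. How many opposite pairs such unequal shares alone would give was not tested, so these counts show no link between partners.

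The sense gene itself was called up at 8 h in 18 pairs and called down in 1, of 304 pairs with both partners tested. Of coding genes that met the threshold set for the antisense RNAs, 2.19% were called up and 0.322% called down. With the sense gene called up, the antisense RNA fell in 8 pairs, rose in 3 and did not pass in 7. With the sense gene called down, the antisense RNA rose. Among all 349 antisense RNAs, 30.4% fell and 20.1% rose at 8 h. Whether the 18 pairs depart from these shares was not tested. Antisense RNA and sense gene rose together for SPNCRNA.605 with *SPAC1F8.04c*, SPNCRNA.1238 with *meu10* and SPNCRNA.1305 with *SPBPB21E7.08*. Among the 8 pairs in which the antisense RNA fell, its changes were largest for SPNCRNA.1312 with *abc3*, SPNCRNA.652 with *SPAC24H6.11c*, SPNCRNA.991 with the spermidine transporter gene *mfs1*, and SPNCRNA.977 with the aminotransferase gene *SPAC27F1.05c*. SPNCRNA.991 held 87.2, 68.0 and 105 at 8 h, against 153, 159 and 133 at 0 h, while *mfs1* was upregulated by 3.52-fold. The antisense RNA rose and the sense gene fell for SPNCRNA.1292 with the methyltransferase gene *SPCC70.08c*. SPNCRNA.1292 held 377, 381 and 370 at 8 h, against 225, 242 and 215 at 0 h, and *SPCC70.08c* held 702, 643 and 627 at 8 h, against 1921, 2067 and 1841 at 0 h.

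Antisense RNAs opposite genes described as transporters by certain words fell more often than not. Of 13 antisense RNAs whose sense gene has transporter, transmembrane or permease in its product, 3 rose, 9 fell and 1 did not pass at 8 h, with a median log2 change of -0.49. The words miss some transporter genes, such as *ght6*, so the counts do not cover all of them. Over all 349, 20.1% rose and 30.4% fell, with a median of -0.069. Among the 9 that fell, the sense gene rose in 5 and did not pass in 4. The 5 were *abc3*, *SPAC24H6.11c*, *mfs1*, the carboxylic acid transporter gene *SPAC11D3.18c* and the oligopeptide transporter gene *opt3*. SPNCRNA.1279, opposite *opt3*, averaged 561 at 8 h and 789 at 0 h, while *opt3* averaged 187 and 43.1. Of the 3 antisense RNAs that rose, SPNCRNA.577 and SPNCRNA.1585, opposite the spermine transporter gene *caf5*, had a sense gene that fell, and SPNCRNA.859, opposite the ammonium transporter gene *amt3*, had a sense gene that did not pass. Both partners passed in 7 transporter pairs, and all 7 ran in opposite directions, against 54 of 90 over all pairs. How many opposite pairs the rises and falls of each partner alone would give was not tested for either count. The proline transporter gene *put4* was 3.47-fold up at 8 h while SPNCRNA.1091, opposite it, averaged 122 at 8 h and 137 at 0 h and did not pass.

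**Figure D4:**
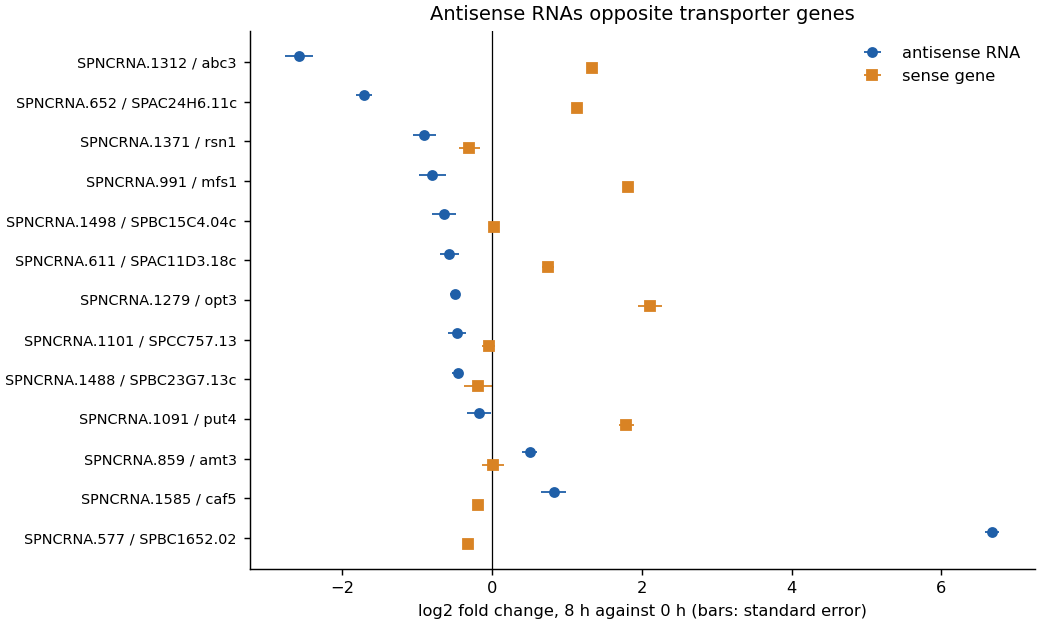
Log2 fold change at 8 h against 0 h (horizontal axis, bars are standard errors) for 13 antisense RNAs (circles) and their sense genes (squares). Each sense gene has transporter, transmembrane or permease in its product. The antisense RNA lies below 0 and the sense gene above 0 for *abc3*, *SPAC24H6.11c*, *mfs1*, *SPAC11D3.18c* and *opt3*, and the reverse holds for *caf5* and *SPBC1652.02*.

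In the other classes of sense gene the median changes at 8 h were closer to 0, between -0.12 and 0.094 on the log2 scale. Their counts stand beside 20.1% that rose and 30.4% that fell among all 349 antisense RNAs. Of 15 antisense RNAs opposite kinase genes, 3 rose and 5 fell at 8 h, and SPNCRNA.622 was the only 1 past 2-fold. SPNCRNA.1271, opposite the kinase gene *ckk2*, fell by 0.80 on the log2 scale, and SPNCRNA.1599, opposite the pantothenate kinase gene *ptk1*, fell by 0.67. Of 15 opposite dehydrogenase or reductase genes, 3 rose and 4 fell, and SPNCRNA.857 rose by 0.71 ± 0.07. Of 5 opposite ribosomal protein genes, SPNCRNA.933 rose by 3.16 and SPNCRNA.1261, opposite *rpl2001*, fell by 0.55. Of 5 opposite transcription factor genes, 1 rose and 1 fell, namely SPNCRNA.1338 by 0.53 and SPNCRNA.1546 by 0.34. Of 5 opposite genes described as meiotic, SPNCRNA.725, opposite the cohesin gene *psm3*, rose by 0.67 and the other 4 did not pass.

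The antisense RNAs moved more like the feature that diverges from their own start than like their matched sense gene. A divergent neighbour was sought on the other strand, with its start within 1000 bases upstream of that of the antisense RNA in ASM294v3. The 2 then run apart and do not overlap. The nearest such feature with a mean of the 4 averages of 10 or more was taken. Such a neighbour was found for 185 antisense RNAs, 176 of them coding genes and 9 noncoding, and none of them was the matched sense gene. For 176 pairs with both partners tested, Pearson's r of the log2 changes was 0.65, 0.67 and 0.59 over 2, 4 and 8 h, and Spearman's rho was 0.36, 0.41 and 0.41. This comparison was chosen after the values were seen, and its r values are descriptions over pairs from the same 12 libraries. Divergent pairs over all features were not counted, so whether this is particular to antisense RNAs was not tested. At 8 h both partners passed in 45 pairs, of which 35 ran in the same direction and 10 in opposite directions. For the 157 of these RNAs with a tested sense gene, the same count was 13 in the same direction and 29 in opposite directions, with an r of -0.08. A few large changes carried part of the relation. Over the 164 pairs whose neighbour changed by less than 2-fold, r was 0.39 and rho 0.35 at 8 h.

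**Figure D5:**
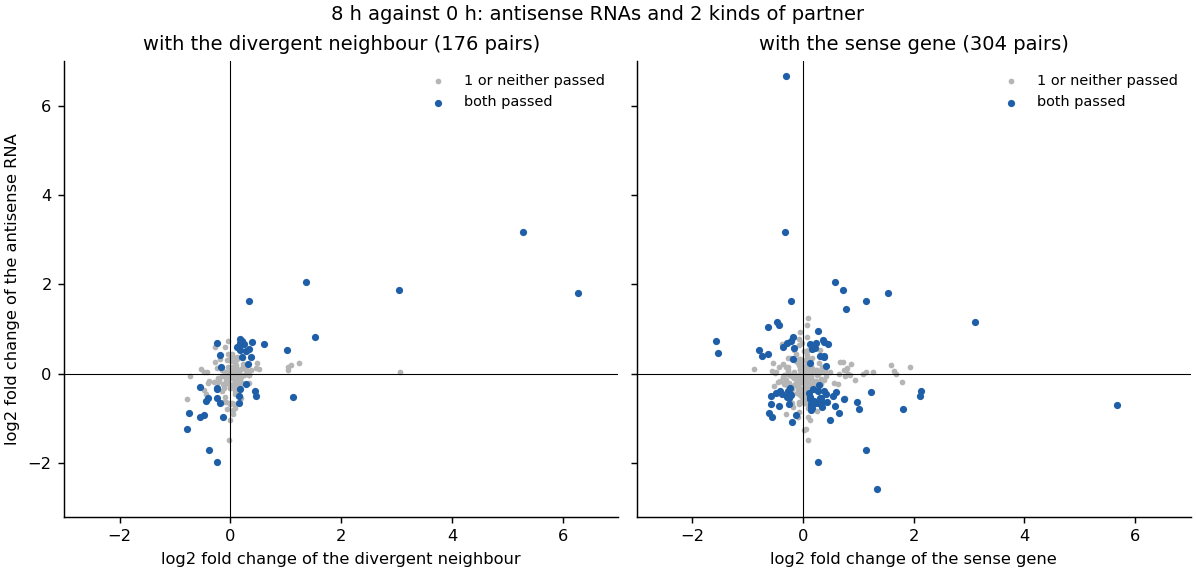
Log2 fold change of the antisense RNA (vertical axis) against that of its divergent neighbour (left, 176 pairs) and of its sense gene (right, 304 pairs) at 8 h against 0 h, with blue points for pairs in which both passed the test. In the left panel 35 of the 45 blue points lie in the quadrants of equal sign, and in the right panel 36 of 90 do.

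Among the called RNAs, SPNCRNA.933 diverges from the noncoding RNA SPNCRNA.935, which held 3952, 4938 and 4235 normalized reads at 8 h, against 106, 94.8 and 139 at 0 h, a 38.9-fold increase. SPNCRNA.605 diverges from *str3*, which encodes a heme transporter of the plasma membrane. It held 1247, 1179 and 1122 at 8 h, against 348, 310 and 364 at 0 h, a 3.48-fold increase, while *str3* held 1757, 1687 and 1195 at 8 h, against 19.8, 13.7 and 27.9 at 0 h, a 77.7-fold increase. SPNCRNA.1471 diverges from the acyltransferase gene *SPBC3H7.05c*, which averaged 1004, 1456, 2066 and 2581 at 0, 2, 4 and 8 h, a climb at every step like its own.

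SPNCRNA.1086, opposite the serine acetyltransferase gene *SPAC1039.08*, diverges from *isp5*, which encodes an amino acid transporter. Its libraries held 52.4, 65.4 and 68.6 at 0 h, 413, 300 and 280 at 2 h, 174, 178 and 201 at 4 h, then 222, 256 and 205 at 8 h. Those of *isp5* held 183, 192 and 224 at 0 h, 6193, 3539 and 2923 at 2 h, 1299, 1479 and 1842 at 4 h, then 1642, 1791 and 1502 at 8 h. Both peaked at 2 h, and both were highest there in library a. SPNCRNA.980 diverges from the phosphate transporter gene *pho842*, which averaged 3929, 5907, 4300 and 3313 and, like the antisense RNA, rose at 2 h and fell at 8 h. SPNCRNA.1617 diverges from the purine transporter gene *SPBC887.17*, which averaged 3144, 5261, 4370 and 3834. SPNCRNA.1643, opposite the acylpyruvase gene *oaa1*, held 2170, 2043 and 1964 at 8 h, against 829, 927 and 862 at 0 h, and diverges from the ornithine transaminase gene *car2*, whose averages were 13740, 23722, 32723 and 33868. *car2* was too abundant for its libraries to be recovered and was not tested.

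The fall of SPNCRNA.1294 ran with that of its neighbour *SPCC1827.06c*, an aspartate semialdehyde dehydrogenase gene at 9870 at 8 h and 17093 at 0 h. Not every pair did so. SPNCRNA.560 fell while its neighbour *snd302* averaged 10072 at 8 h and 10130.5 at 0 h and did not pass. SPNCRNA.888 fell by 3.95-fold while its neighbour *scn3* fell by 0.24 on the log2 scale. SPNCRNA.577 and SPNCRNA.1312 had no neighbour within 1000 bases by this rule. The nearest upstream feature on the same strand was taken within the same distance and with the same floor on its mean. Over 97 such pairs at 8 h, r was -0.08 and rho 0.12. Where both partners passed, 16 pairs ran in the same direction and 13 in opposite directions.

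The genes that limit antisense RNAs changed little. Of 24 genes of the nuclear exosome and its adaptors, 14 fell and 0 rose at 8 h, all by less than 2-fold, with a median log2 change of -0.15. Over all features at 100 or more, 24.6% fell and 27.8% rose at 8 h, with a median of 0.025, and these shares stand beside the other lists too. With no adjustment and with voom weights the number that rose was also 0. At 2 h 7 fell, and at 4 h 13 fell. *rrp6*, the nuclear 3′ exonuclease gene, averaged 2426 at 8 h and 2750 at 0 h, *cid14*, the noncanonical poly(A) polymerase gene, averaged 2447 and 3149, and *air1*, its zinc knuckle partner, averaged 758 and 1008. Of 18 genes of chromatin factors, 4 rose and 0 fell at 8 h, with 0 also at an unadjusted p under 0.05 and with voom weights. *set2*, the histone H3 lysine methyltransferase gene, rose by 0.17 ± 0.04. Of 8 genes of the 5′ decay and nonsense-mediated decay pathways, 3 rose and 1 fell at 8 h, with *exo2*, the cytoplasmic 5′ exonuclease gene, up by 0.11. Of 8 genes of RNA interference and heterochromatin, 1 rose and 1 fell, and *dcr1*, the Dicer gene, averaged 1052 at 8 h and 1321 at 0 h. Of 7 termination genes, 2 rose and 2 fell.

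The 7 markers of meiosis and sporulation had summed levels of 815 to 947 normalized reads per library at 8 h and 747 to 947 at 0 h. Of 6 tested, 1 rose at 2 h, 2 rose at 4 h (*rec8* by 0.56 and *ssm4* by 0.48) and 1 fell at 8 h (*mei4* by 0.33, limma adjusted p = 0.032), a call that was lost with voom weights, which left 0. The 5 markers of M cells, the mating type of this strain, summed to 3642 to 4186 at 8 h and 1929 to 2002 at 0 h, and 4 of them rose, led by the receptor gene *mam2* at 1.22 on the log2 scale. The 3 P cell markers summed to 8834 to 9090 at 8 h and 7151 to 7466 at 0 h, nearly all of it from *sxa1*. Their sum lay above that of the M cell markers although the strain is of M type. Whether these 3 genes mark P cells here was not tested. None of the 15 markers was at 0. The part of these changes in the antisense RNAs was not tested.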

How the data were processed

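Poly(A)+ RNA from 12 samples, 3 biological replicates at each of 0, 2, 4 and 8 h, was sequenced with a stranded kit. Per the labels and the study's methods, reads were aligned with HISAT2 2.1.0 and handled with SAMtools. They were counted over annotated exons (ASM294v2) with HTSeq 0.10.0. The authors deposited 3 tables of 6988 features that give, per time, the average of size-factor-normalized reads over 3 libraries (a signal) made with DESeq2 (no version stated). The tables also hold the authors' fold changes, standard errors, test statistics and p-values, which were not used. Each average, written to 15 digits, is a sum of 3 whole read numbers, each times a step set by its library. The steps are the 3 smallest averages above 0, and lattice reduction then gave exactly 1 set of whole reads for 27776 of 27952 averages (99.37%), including every average of 20000 or less. For averages of 6000 or more, only sets with every library within a fixed range around the average counted. Finding exactly 1 set there rests on that limit too. This step was tested on simulated data. Features above 20000 at any time, or with several solutions, were left out, as were features with a mean of the 4 averages under 10 (869) or a library at 0 (8), which left 5949.

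Log2 normalized reads, with no pseudocount, were fitted with limma 3.58.1 (R 4.3.3, trended prior, 1 coefficient per time), and p-values were adjusted by Benjamini-Hochberg over all 5949 features. Recovered library values replaced the deposited averages for every test, and printed averages are the deposited ones. P-values set a difference between times against the spread between replicates, pooled over the 4 times and drawn towards the trended prior. The fit treated all 12 libraries as independent, although samples of different times may come from the same culture. "Rose" and "fell" mean an adjusted p of 0.05 or less, and "called" also 2-fold and an average of 100 or more at the higher time.

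Sense genes were matched by the RNA's name (311, 7 of them by an older name), and neighbours by RefSeq's ASM294v3 annotation, which holds 6804 of the features, used for neighbourhood and exon length only. Its build differs from that of the files, so no coordinates or sequences are printed. Members, lists and tests were chosen with earlier results of these data known. RNAs were named by rule: the 10 largest changes each way at each time and 3 at each step among those called, the 5 most abundant at 0 h, 3 on each side of the threshold, and 4 per combination of directions with a sense gene past 2-fold. The RNAs opposite *alr2*, *dmc1*, *mug93* and *meu17*, those given for classes of sense genes, Meu16, and the neighbours were named after their values were seen. Alternatives were 2 pseudocounts, 2 scalings, 2 folds, other filters, voom and leaving out each library.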

Additional observations from a re-analysis of the deposited data

How the results depend on the processing

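The 51 called changes of named RNAs kept their direction and an adjusted p of 0.05 or less in limma under all 17 refits (pseudocounts of 1 and 10, averages scaled to equal sums, centring on the median coding gene, voom weights, and leaving out each of 12 libraries). Their log2 change slipped under 2-fold in 20 of those values, all for SPNCRNA.560, SPNCRNA.616, SPNCRNA.763, SPNCRNA.1211 and SPNCRNA.1328. Median log2 changes moved by less than 0.1, which is large beside the medians themselves: the 2 h median (0.050) lay between 0.012 and 0.090 when 1 library was left out, and the 4 h median (-0.034) became -0.091 with equal sums and -0.015 with no filter on low values.

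Counts of called RNAs moved by over 1.5 times as follows, with the main count first. With no threshold of 100, 627 RNAs with a mean of 10 or more and no library at 0 were counted. Those called up over 2, 4 and 8 h were 11 and 21, 10 and 18, and 16 and 25. Those called down were 2 and 6 at 4 h, then 8 and 22 at 8 h. Between 2 and 4 h the counts were 2 and 4 up and 1 and 3 down. Between 4 and 8 h they were 0 and 1 up and 0 and 6 down. At a fold of 1.5 the counts were 21 up and 15 down at 2 h, 27 and 18 at 4 h, 38 and 48 at 8 h, 10 and 12 between 2 and 4 h, and 4 and 13 between 4 and 8 h. At a fold of 3 they were 5 and 0, 5 and 1, 8 and 3, and between 2 and 4 h 1 and 0. For RNAs with a highest average of 200 or more (212) 2 were called down at 2 h, 10 up and 5 down at 8 h, and 1 up and 0 down between 2 and 4 h. For RNAs with a mean of 100 or more (313, chosen after seeing the data, as was voom) 1 was called down at 2 h, 1 down at 4 h, and 1 up and 0 down between 2 and 4 h. A pseudocount of 10 gave 2 down at 2 h, and 1 up and 0 down between 2 and 4 h. Scaling to equal sums gave 1 up between 2 and 4 h, and centring on the median coding gene gave 1 down between 4 and 8 h. Fewer RNAs enter under stricter limits by construction; other causes were not tested.

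Leaving out 1 library gave 1 to 2 called up and 0 to 1 down between 2 and 4 h, and 0 to 1 down between 4 and 8 h. At 8 h it gave 15 to 17 up and 7 to 11 down. Neighbour pairs were compared after seeing the data. Their r was 0.57 at 4 h and 0.49 at 8 h for coding neighbours only, and 0.42, 0.35 and 0.39 at 2, 4 and 8 h for neighbours that changed by less than 2-fold. No paired analysis was possible because the recovered libraries carry no replicate number. Depth limits the RNAs near 100 normalized reads.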
